A study of Mus musculus with 10 samples.

Results

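Transcript levels were compared among 6 livers of wild-type (WT) mice, all collected 12 hours after partial hepatectomy. The aim was to describe how much the regenerating liver samples of a single group differ from each other. The livers are labelled WT-1 to WT-6 and are the control group of a study of Ifrd1, a transcriptional co-regulator; the count table holds 10 liver columns in all, and the knockout columns were not used. Every animal had its left lateral and median lobes removed under isoflurane, and poly(A) RNA of liver tissue was sequenced. Strain, age, sex and hour of surgery are not given in the labels, and they do not say which lobe was sequenced or whether the livers were handled on the same day. The labels number the samples without naming animals, and each column is treated as its own mouse. Livers of unoperated animals were not analysed here, and the values therefore show no change from rest. Of 23056 gene symbols, 12130 had at least 1 CPM (a gene's share of the library's counts, scaled to a common library size) in 4 or more of the 6 livers and are the genes described; they held 99.7% of the counts.

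After removal of lobes, the hepatocytes left behind leave quiescence while they keep up the synthesis of plasma proteins, the supply of glucose and the clearance of bile acids and foreign compounds. The early hours are known for immediate early transcription factors and for an acute phase response driven by cytokines from Kupffer cells, the resident macrophages of the liver. Hepatocyte transcripts are also known to follow the hour of day, feeding and, in rodents, the sex of the animal through the pattern of growth hormone release.

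The livers held the transcripts of the labelled tissue. All 30 of 30 listed plasma protein genes and 19 of 20 hepatocyte transcription factors passed the filter. Of markers of other cells, 16 of 20 for Kupffer cells and macrophages, 15 of 15 for sinusoidal endothelium and 14 of 15 for stellate cells and fibroblasts passed, against 5 of 11 for cholangiocytes, 4 of 13 for neutrophils, 4 of 17 for B and plasma cells and 0 of 15 for T and NK cells. The 15 T and NK cell markers summed to 2.94 to 5.77 CPM per liver. The summed level of the sinusoidal endothelium list was 213 to 414 CPM and that of the stellate cell list 223 to 419 CPM. Of other tissues, skeletal muscle genes summed to 3.07 to 11.7 CPM and pancreatic genes to 8.06 to 17.9 CPM, where 4 of 11 and 4 of 25 listed genes were in the table. The adipose list summed to 633 to 2687 CPM, of which 559 to 2551 CPM was Pck1, and the intestine list to 405 to 1671 CPM, of which 346 to 1621 CPM was Apoa4, and hepatocytes express both genes. The other adipose genes that passed were Fabp4 (55.0 to 123 CPM) and Lipe (5.42 to 11.9 CPM), both highest in WT-4. The Y-linked Ddx3y was at 31.8 to 89.1 CPM in all 6 livers and Xist, the RNA of the inactive X chromosome, at no more than 0.862 CPM.

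Total counts lay between 12307446 and 14340623 per liver, so depth was nearly equal. The livers did not form a tight group. On the first principal component (43.4% of the variance of log2 CPM) WT-2 was at -59.7 and WT-4 at 59.0, with the other 4 livers between -16.6 and 24.1. The second component (26.7%) held WT-5 and WT-6 at -40.8 and -39.9 and the other 4 between 11.5 and 27.3. WT-5 and WT-6 were the most alike pair, with Pearson's r of 0.970 across genes, and WT-2 and WT-4 the least alike (0.867). Counts of every pair differed beyond sampling noise (chi-square per degree of freedom 38.6 to 207), so no column was a copy of another up to that noise. Separate preparations of 1 liver could also differ beyond it, so these values cannot show that the livers are distinct.

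Spread was measured as the standard deviation (SD) of log2 CPM over the 6 livers, on which 1 unit is a doubling. The median SD over the 12130 genes was 0.39, against a median of 0.10 that counting error alone would give, and edgeR's common biological coefficient of variation was 0.356. Of the 12130 genes, 11184 (92.2%) varied more than counting error allows in a chi-square test with Benjamini-Hochberg adjustment, which compares these livers and no conditions. An SD of at least 1 was reached by 673 genes (5.55%). Every share of list members with such an SD below is to be read against that background. The lists and this threshold were chosen with earlier results of these data known, so a share above the background is a description and no test. With 6 livers the SD of a gene is itself known only to within 0.624 to 2.45 times its value (95% interval for normal values). The share of genes with an SD of at least 1 was 8.65% below 3 CPM, 3.31% from 30 to 100 CPM and 7.84% from 1000 CPM. The share was thus higher at both ends of the abundance range than between, although counting error falls steadily with level. The upper end is only 8 of 102 genes, however. These include the major urinary protein genes Mup7, Mup11, Mup12 and Mup17 described below, all lowest in WT-2.

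A single liver often carried the spread. Among the 673 genes, the liver farthest from the median of the other 5 was WT-2 for 248 (36.8%) and WT-4 for 243 (36.1%), while each of the other 4 livers was farthest for 33 to 59. WT-2 lay below the others in 167 of its 248 genes and WT-4 in 133 of its 243. Without WT-2, 452 genes had an SD of at least 1, of which 394 were among the 673, and without WT-4 the number was 439, of which 379 were among them. Leaving out any of the other livers left 640 to 673. Over all genes that passed the filter, WT-4 was the farthest liver for 27.0% and WT-2 for 24.3%. The other 4 livers had 8.38% to 16.1% each. Some members of any list would thus be extreme in WT-4 or WT-2. The share of all genes highest or lowest in each liver was not worked out. Counts below of list members highest or lowest in a liver therefore have no background and are descriptions only. Mitochondrially encoded mRNAs took 14.5%, 17.6% and 16.9% of counts in WT-1 to WT-3 and 26.4%, 28.9% and 24.5% in WT-4 to WT-6. That share did not separate WT-2 or WT-4 from the rest.

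**Figure D1:**
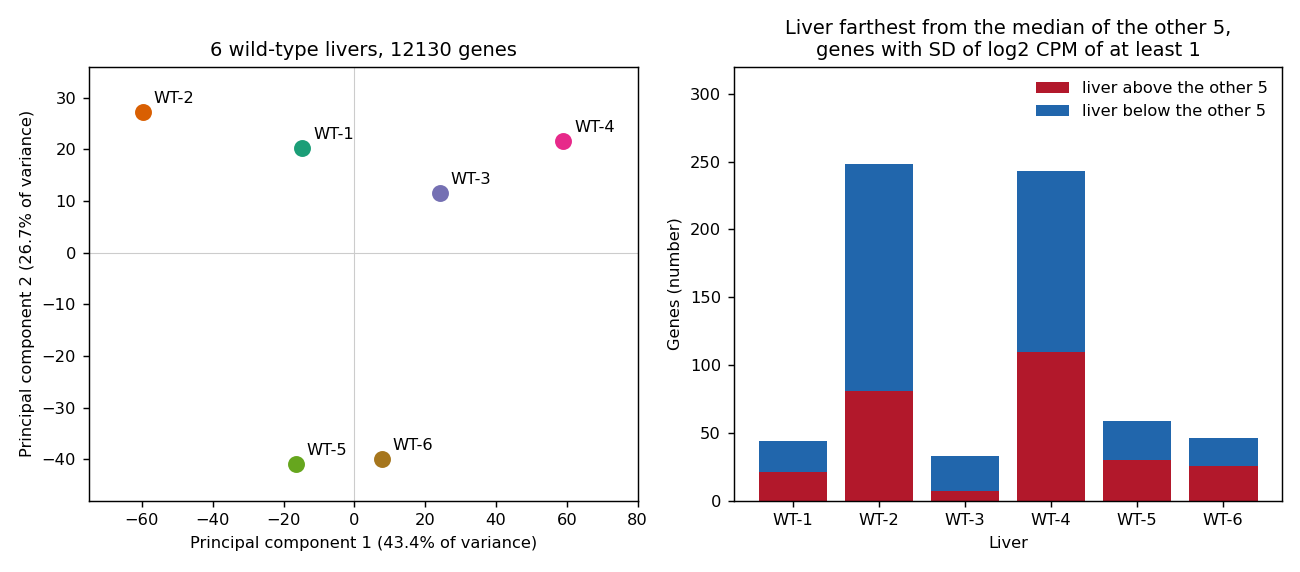
Left, position of each liver on principal components 1 and 2 of log2 CPM (axes in component units, with the share of variance); right, number of genes with an SD of at least 1 for which each liver lies farthest from the median of the other 5, split by direction. WT-2 and WT-4 stand at opposite ends of the first component and account for 248 and 243 genes, while WT-5 and WT-6 lie together on the second.

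The filter cut through a thin layer of genes: 10997 symbols reached 1 CPM in all 6 livers, 655 in 5, 478 in 4, 473 in 3 and 567 in 2. Among those at 4 livers the lowest mean was that of Cdkn2d, a cyclin-dependent kinase inhibitor (0.824 CPM, lowest 0.258 in WT-5). Among those at 3 livers the highest mean was that of Gm15441, which was therefore left out although it stood at 75.6 CPM in WT-4, 11 in WT-1 and 4.02 in WT-3 and under 1 CPM in the others. Around the SD of 1, Serpinb6b (1.0004) was just inside and elastin, Eln (0.9996), just outside.

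The most abundant transcripts outside the mitochondrial genome encoded secreted plasma proteins. By CPM the first 8 were Alb (albumin), Serpina3k, Apoe, Hp (haptoglobin), Fgb (fibrinogen beta chain), Saa2 (serum amyloid A), Apoa1 and Trf (transferrin). Levels of different genes are comparable only per length: on CPM per kilobase of merged exons, the mitochondrial mt-Co1 was first at 52083, Alb was at 13695 (rank 5), Apoa1 was at 8091, Hp at 8058, Orm1 at 7692, Serpina3k at 6808 and Apoe at 6295. Alb (chromosome 5, 90460897 to 90476602, plus strand, GRCm38, GENCODE M21) was at 31790, 59163, 26162, 19124, 24069 and 32141 CPM in WT-1 to WT-6. Its level in WT-2 stood above all others and that in WT-4 below all others, with an SD of 0.55 on the log2 scale, 0.31 without WT-2. Alb alone took 1.97% to 5.87% of counts, and the 10 most abundant non-mitochondrial genes together 9.96% to 17.2%.

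Acute phase proteins, which the liver secretes in response to cytokines, were among the abundant transcripts of every liver. Saa1 was at 6797 to 7825 CPM in 5 livers and 13476 CPM in WT-3, Saa2 at 7708 to 10613 and 16859 CPM in WT-3, and Hp at 9882 to 15277 and 18763 CPM in WT-3. WT-3 had the highest value of 11 of the 25 acute phase genes measured, and 3 of the 25 (Orm3, Saa3 and Hamp2) had an SD of at least 1. The fibrinogen chains had another order of livers. Fga was at 15138, 9399, 12483, 7710, 4395 and 4355 CPM and Fgg at 13421, 13983, 11668, 6372, 6076 and 5349 CPM in WT-1 to WT-6, so WT-4 to WT-6 were low in both. None of the 30 major plasma protein genes reached an SD of 1 (median 0.32). Rn18s-rs5, a ribosomal RNA gene counted in spite of the poly(A) selection, took 0.236% to 1.57% of counts, lowest in WT-3 and highest in WT-1.

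At the other extreme, some transcripts hardly differed between livers. Among genes with a mean of at least 100 CPM the smallest SD belonged to Cox4i1, a subunit of cytochrome c oxidase encoded in the nucleus, at 469, 498, 499, 472, 492 and 505 CPM (SD 0.04). Even its counts varied more than counting error allows (chi-square test, adjusted p = 4.98e-06 by Benjamini-Hochberg). The next were Cox6a1 of the same complex (247 to 285 CPM, SD 0.07), the co-chaperone Dnaja2 (98.0 to 113 CPM, 0.07), Azgp1 (846 to 991 CPM, 0.08), Akr1a1 (243 to 278 CPM, 0.08), Ubxn1, Atp5j, the ribosomal protein Rps3 (248 to 287 CPM, 0.08), Mlec and the outer mitochondrial channel Vdac2 (95.7 to 112 CPM, 0.09). The median SD was 0.26 over 34 cytosolic ribosomal protein genes and 0.32 over 30 ribosome biogenesis genes, below the 0.39 of all genes, with 0 members of either at an SD of 1 or more. It was above that of all genes for 25 cholesterol synthesis genes (0.49) and 13 mitochondrially encoded mRNAs (0.46), although 0 of them had an SD of at least 1. The mitochondrial mRNAs varied together, with a mean r between pairs of members of 0.83 over the 6 livers, where the mean over all pairs of the 12130 genes was 0.000182.

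**Figure D2:**
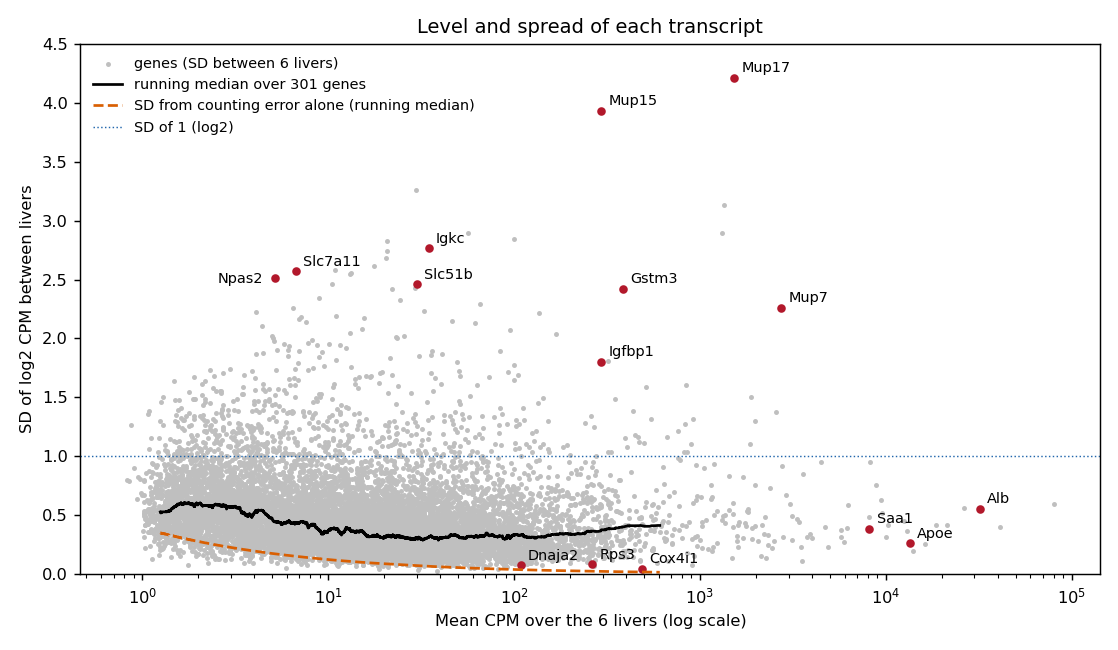
Each grey point is a gene, with its mean CPM over the 6 livers (log scale) and its SD of log2 CPM between livers; the black line is the running median over genes of like level and the dashed line the SD that counting error alone gives. Mup17 and Mup15 lie above all other genes at SD 4.22 and 3.93, albumin (Alb) combines a high level with an SD of 0.55, and Cox4i1 lies close to the dashed line at 0.04.

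The largest spread was in the major urinary protein (Mup) family, a tandem array of genes on chromosome 4 whose products carry pheromones in mouse urine and whose transcription is known to be higher in males. Mup17 (61591929 to 61595871, minus strand, GRCm38) had the largest SD of all genes, 4.22. It was at 1894, 2517, 1241, 876 and 2619 CPM in WT-1, WT-3, WT-4, WT-5 and WT-6 and at 1.27 CPM in WT-2, where it had 17 counts. Without WT-2 its SD was 0.68. Mup15 was at 143 to 481 CPM in 5 livers and 0.298 CPM (4 counts) in WT-2. Mup7 was at 1446 to 6129 CPM and 78.0 CPM in WT-2. The drop was thus confined to WT-2 for these 3 genes, whereas Mup12 also differed among the others, at 392 CPM in WT-1 and 3034 CPM in WT-3.

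Of 37 Mup genes and pseudogenes in the table, 21 passed the filter, 17 had an SD of at least 1, and 20 had their lowest value in WT-2. Mup21 was the exception, at 26.7 CPM in WT-5 and 33.1 in WT-2. Members did not fall alike: Mup3 was at 4047 CPM in WT-2 against 4145 to 7249 CPM elsewhere (SD 0.37), and Mup20, known as darcin, at 329 CPM against 971 to 2167 CPM (SD 0.93). The summed level of the family was 21863, 4918, 23959, 13046, 11255 and 19917 CPM in WT-1 to WT-6. The genes are near copies of each other, so the division of reads among them is uncertain and the sum is the safer value. The stretches of 250 bases before the start sites of Mup17 and Mup15 are shown for the pair with the largest SD (RefSeq, GRCm38.p6, minus strand, chr4:61595833-61596082 and chr4:61439705-61439954). Capitals mark bases without an identical partner in the alignment, and all other bases are the same. The GT that opens the Mup15 stretch lies past the edge of the Mup17 stretch, so it need not be a difference between the genes.
Mup17: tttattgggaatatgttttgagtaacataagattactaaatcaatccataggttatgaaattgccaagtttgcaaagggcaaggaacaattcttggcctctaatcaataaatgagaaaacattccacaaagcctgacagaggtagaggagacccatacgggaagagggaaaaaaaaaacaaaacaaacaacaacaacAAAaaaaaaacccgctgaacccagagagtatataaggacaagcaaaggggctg
Mup15: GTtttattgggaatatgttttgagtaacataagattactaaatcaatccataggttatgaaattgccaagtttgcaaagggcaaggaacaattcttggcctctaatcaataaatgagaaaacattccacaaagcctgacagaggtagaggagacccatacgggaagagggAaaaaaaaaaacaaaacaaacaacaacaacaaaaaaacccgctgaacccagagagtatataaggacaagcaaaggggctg
Among the 11 Mup genes with a promoter window of 300 bases, the share of identical bases between pairs ran from 46.7% to 99% (median 81.0%). Gaps lower this share: Mup7 and Mup11 had 191 identical bases, 3 mismatches and 212 gap positions (63.7%). The lowest share was that of Mup7 and Mup18, aligned with 139 mismatches and 42 gap positions. Windows placed differently along like sequences also give low shares, so the share is no measure of divergence alone.

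WT-2 was also low in genes with higher expression in males outside the Mup family. The list of 22 male-biased liver genes measured holds 7 Mup genes, so its counts in part repeat those above: 12 (54.5%) had an SD of at least 1, and 19 had their lowest value in WT-2. Of the 15 members that are not Mup genes, 7 had an SD of at least 1 and 13 their lowest value in WT-2. Cyp4a12a, a fatty acid hydroxylase, was at 163 to 410 CPM in 5 livers and 34.0 CPM in WT-2. Cyp7b1, an oxysterol hydroxylase, was at 96.1 to 334 CPM and 15.6 CPM in WT-2, and Elovl3, a fatty acid elongase, at 61.4 to 172 CPM and 22.2 CPM. Slco1a1 (83.5 to 129 CPM, SD 0.23) and Cyp2d9 (511 to 803 CPM, SD 0.26) of the same list varied little. The list score of a liver, the average departure of its members from their own 6-liver means in log2 CPM, was -1.94 in WT-2 and -0.02 to 0.68 in the others. Over the 15 members that are not Mup genes it was -1.28 in WT-2 and -0.05 to 0.55 in the others. Without WT-2, 4 of the 22 members of the whole list, Mup genes included, had an SD of at least 1.

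Female-biased genes mirrored this only in part. Of 23 listed genes 9 passed the filter, 6 of them with an SD of at least 1, and they split by liver. WT-2 and WT-4 each had the highest value of 3 of the 9. The list score was 0.27 in WT-2, 1.17 in WT-5, 0.48 in WT-6 and -0.96 to -0.16 in the other livers. Cux2, a female-specific repressor of male-biased genes, was highest in WT-2 (22.3 CPM) and also high in WT-5 (12.0 CPM), against 0.271 to 5.41 CPM in the other 4. Cyp2c40 was at 21.1 and 19.3 CPM in WT-5 and WT-6 and 0.950 to 3.06 CPM in the others, and Cyp2c69 and Fmo2 were likewise high in WT-5 and WT-6. Cyp4a14 was highest in WT-4 (1068 CPM, others 79.8 to 529). Y-linked transcripts were present in WT-2: Ddx3y was at 89.1 CPM, the highest value, Eif2s3y at 59.4 CPM against 38.6 to 61.3 CPM elsewhere, and Kdm5d at 8.28 CPM, the lowest value, against 8.44 to 21.1 CPM. Xist was at 0.149 CPM in WT-2, against 0.0758 to 0.862 CPM elsewhere. In having Y-linked transcripts and almost no Xist, WT-2 was thus like the other livers. The growth hormone targets Socs2 and Igfals were at 25.7 and 9.70 CPM in WT-2, against 3.27 to 11.5 and 4.22 to 31.8 CPM elsewhere, and Igf1 at 530 CPM, the lowest value, against 542 to 847 CPM.

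**Figure D3:**
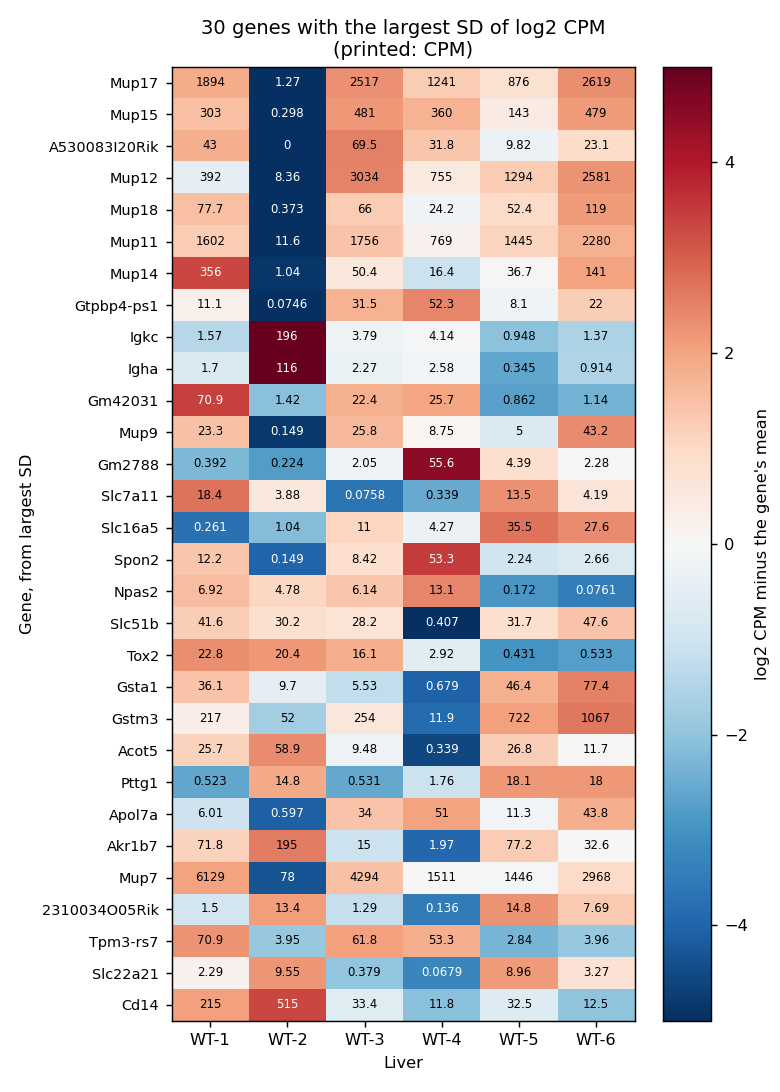
Colour gives the departure of log2 CPM from the gene's mean (scale cut at 5 in either direction) for the 30 genes with the largest SD, 1 row per gene and 1 column per liver, with CPM printed in each cell. Blue cells of Mup genes gather in WT-2, red cells of Igkc and Igha (196 and 116 CPM) in WT-2, and dark blue cells of Slc51b, Acot5 and Slc22a21 in WT-4.

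Transcripts of blood and immune cells set WT-2 apart in the opposite direction. Igkc, the immunoglobulin kappa constant region, was at 196 CPM in WT-2 and 0.948 to 4.14 CPM in the other livers, and Igha, the heavy chain of immunoglobulin A, at 116 and 0.345 to 2.58 CPM. Ighg1 was at 40.1 CPM in WT-2 and had at most 2 counts in any other liver. Ighm, the heavy chain of immunoglobulin M, did not follow (1.36 to 3.32 CPM, SD 0.48). The B and plasma cell list summed to 238 to 1033 CPM, of which 223 to 526 CPM was Xbp1, a gene that hepatocytes also express.

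Kupffer cell and macrophage markers were likewise highest in WT-2. Of 16 members, 14 had their highest value there and 12 their lowest in WT-4, and 3 (18.8%) had an SD of at least 1. Cd14, a co-receptor for bacterial lipopolysaccharide, was at 215, 515, 33.4, 11.8, 32.5 and 12.5 CPM. Clec4f, which marks Kupffer cells, was at 28.5, 105, 23.6, 10.2, 45.1 and 42.9 CPM, and Cd68 at 54.1 CPM in WT-2 and 4.55 to 10.6 CPM elsewhere. The list summed to 380, 1034, 160, 106, 254 and 266 CPM. Cd14 alone made up 215 CPM of the sum in WT-1 and 515 CPM in WT-2, a larger part than in the other livers. The sums of these livers thus rest to a large part on 1 gene. All 4 neutrophil markers that passed were highest in WT-2, such as S100a9 at 78.6 CPM against 2.81 to 14.6 CPM and Retnlg at 24.8 CPM against 0.379 to 2.42 CPM. Without WT-2, 1 Kupffer cell gene (Cd14) and 1 neutrophil gene had an SD of at least 1; without WT-1, WT-5 or WT-6 the Kupffer cell count was 6, 7 and 6. In tissue samples, fewer cells of a type and less RNA per cell cannot be told apart. The red cell list was also highest in WT-2 in its sum, 343 CPM against 122 to 321 CPM, although the globin gene Hbb-bs was higher in WT-5 and WT-6 (167 and 140 CPM) than in WT-2 (139 CPM).

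WT-2 differed in RNA makeup too. Of 10 nuclear or long noncoding RNAs measured, 6 had their lowest value in WT-2, where the list score was -0.72 against 0.06 to 0.26 in the others. Malat1 was at 165 CPM in WT-2 and 374 to 1482 CPM elsewhere, and Neat1 at 388 CPM against 1154 to 3149 CPM. Only 2 genes had 3 or fewer counts in 1 liver and at least 5 CPM in each of the other 5, and both were missing from WT-2: A530083I20Rik (0 counts, which allows up to 0.224 CPM, against 9.82 to 69.5 CPM; counting error only) and the pseudogene Gtpbp4-ps1 (1 count against 8.10 to 52.3 CPM). Whether RNA quality or cell makeup has a part in the Mup and male-biased values of WT-2 was not tested.

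Genes of the integrated stress response, the programme that ATF4 drives when amino acids run short or protein synthesis is stressed, had a larger median SD than all genes together. Of 21 members measured, 10 (47.6%) had an SD of at least 1, with a median SD of 0.90 against 0.39 over all genes, and their scores were 0.93 and 0.78 in WT-1 and WT-2, -0.62 and -0.95 in WT-3 and WT-4, and -0.03 and -0.12 in WT-5 and WT-6. Slc7a11, the cystine-glutamate exchanger, was at 18.4, 3.88, 0.0758, 0.339, 13.5 and 4.19 CPM (SD 2.57). Chac1, which degrades glutathione, was at 12.2 and 20.4 CPM in WT-1 and WT-2 and 0.862 to 1.37 CPM in the other 4. Trib3, a pseudokinase, followed the same division (16.1 and 12.7 CPM against 1.64 to 3.96 CPM). The serine and folate enzymes Psat1 (1.90 to 77.9 CPM) and Mthfd2 (2.71 to 40.8 CPM) were lowest in WT-4 and highest in WT-1. Atf4 itself was at 173 to 369 CPM (SD 0.39), a spread at the RNA level like the median of all genes. Without WT-4, 5 members had an SD of at least 1.

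The element bound by ATF4 with C/EBP proteins, TGATGNAA on either strand, was 1 of 9 motifs looked for over the lists and clusters in promoter windows of 300 bases (250 before and 50 after the start site). It was present in 6 of 19 integrated stress response genes with a window (31.6%) and in 2.16% of the 9198 windows of genes that passed. The upstream stretches of Chac1 (chr2:119350992-119351241, plus strand) and Slc7a11 (chr3:50443614-50443863, minus strand; RefSeq, GRCm38.p6) are shown since both are among the most variable members; capitals mark the matches, which begin 193 bases before the start in Chac1 and 66 and 47 bases before it in Slc7a11.
Chac1: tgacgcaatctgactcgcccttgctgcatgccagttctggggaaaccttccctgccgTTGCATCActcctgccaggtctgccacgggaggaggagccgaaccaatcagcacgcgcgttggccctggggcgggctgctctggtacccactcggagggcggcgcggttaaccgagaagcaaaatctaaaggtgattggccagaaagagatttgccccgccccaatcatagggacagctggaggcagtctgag
Slc7a11: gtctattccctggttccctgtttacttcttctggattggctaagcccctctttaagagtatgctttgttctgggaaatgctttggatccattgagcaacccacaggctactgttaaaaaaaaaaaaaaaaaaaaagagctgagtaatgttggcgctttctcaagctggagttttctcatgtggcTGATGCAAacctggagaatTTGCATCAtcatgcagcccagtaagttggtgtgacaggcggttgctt
The same element is thus present upstream of both genes while their order over the livers differed, since Slc7a11 but not Chac1 was high in WT-5. A match describes the letters only.

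WT-4 was the lowest liver for oxidative stress and detoxification genes. Of 28 NRF2 targets and glutathione genes, 18 had their lowest value in WT-4, where the score was -1.23 against -0.39 to 0.56 in the others, and 8 (28.6%) had an SD of at least 1. Gstm3, a glutathione transferase, was at 217, 52.0, 254, 11.9, 722 and 1067 CPM, and Gsta1 at 36.1, 9.70, 5.53, 0.679, 46.4 and 77.4 CPM. In both, WT-5 and WT-6 were highest and WT-4 lowest. Srxn1, which repairs peroxiredoxins, was at 67.9 CPM in WT-4 and 320 to 626 CPM in the others. Prdx1 (609 to 730 CPM, SD 0.11) and Taldo1 (94.8 to 130 CPM, SD 0.17) of the same list were nearly level. The metallothionein Mt1, a zinc-binding protein, was at 1109 CPM in WT-4 against 3903 to 6715 CPM.

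Immediate early genes, transcribed within minutes of a stimulus, were also lowest in WT-4. Of 22 measured, 14 had their lowest value in WT-4 and 11 their highest in WT-2, and 6 (27.3%) had an SD of at least 1. Egr1 was at 106, 229, 108, 15.8, 88.1 and 136 CPM and Fos at 16.5, 20.4, 40.9, 3.53, 8.62 and 13.3 CPM. Btg2, an antiproliferative early gene, was at 11 CPM in WT-4 and 48.5 to 168 CPM in the others, and Atf3 at 1.22 CPM against 7.39 to 33.9 CPM. Myc, a growth regulator, was at 44.1, 36.2, 25.9, 11.1, 45.3 and 27.8 CPM (SD 0.75). Without WT-4, 1 member had an SD of at least 1, and without WT-5 the number was 9.

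Hepatic growth signals differed by gene. Of 20 growth factors and receptors of regeneration measured, 6 had an SD of at least 1, and 2 without WT-4. Among ligands, Hbegf, which binds the EGF receptor, was at 0.407 CPM in WT-4 and 4.64 to 10.7 CPM elsewhere, while the activin chain Inhba was at 16.5, 26.2 and 8.15 CPM in WT-3, WT-4 and WT-6 and 1.18 to 1.98 CPM in WT-1, WT-2 and WT-5. Gdf15, a stress-induced cytokine, was at 27.4 CPM in WT-4 and 97.1 to 203 CPM elsewhere. Hgf stayed between 1.97 and 4.85 CPM (SD 0.46). Among receptors, Egfr was at 145 to 389 CPM (SD 0.54), highest in WT-4, Met at 20.6 to 46.5 CPM (0.39) and the interleukin-6 signal transducer Il6st at 70 to 108 CPM (0.21).

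Of 20 cell cycle genes measured, 2 (10%) had an SD of at least 1, and the median SD was 0.51 against 0.39 over all genes. Ccnd1, cyclin D1 of the G1 phase, was at 47.2 CPM in WT-3, 22.1 CPM in WT-6 and 6.49 to 11.8 CPM in the other 4 (SD 1.00). The replication licensing gene Mcm5 was at 0.227 to 4.80 CPM. Pcna (11.1 to 22.7 CPM, SD 0.35) and Rrm1 (4.17 to 5.49 CPM, SD 0.14) were nearly level, and Mki67 did not pass the filter. Cdkn1a, the p21 inhibitor, was at 271, 324, 166, 126, 165 and 93.0 CPM. Ifrd1, the gene under study, was at 80.7, 70.8, 39.9, 49.5, 60.1 and 48.2 CPM (SD 0.38).

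Genes of glucose supply and fuel use that answer to insulin, glucagon and fasting were uneven. Of 26 glucose metabolism genes, 7 (26.9%) had an SD of at least 1. G6pc, the last enzyme of glucose release, was at 8.43 and 11.3 CPM in WT-1 and WT-2 and 63.0 to 216 CPM in the other 4. Pck1, the entry enzyme of gluconeogenesis, was in the same order of groups (728 and 559 CPM against 1408 to 2551 CPM). The glycogen-targeting subunits Ppp1r3b and Ppp1r3c were highest in WT-4, at 80.5 and 48.2 CPM, against 2.46 to 18.4 and 0.522 to 6.98 CPM. Igfbp1, a binding protein of insulin-like growth factors that insulin represses, was at 101, 1225, 74.7, 38.6, 262 and 65.5 CPM (SD 1.80, 1.02 without WT-2). Igfbp1 thus stood at its highest in WT-2, where G6pc was low.

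Igfbp1 (chromosome 11, 7197782 to 7202546, plus strand) had the largest SD of the chosen panel that passed, 22 of 26 genes. The 5 genes most like it over the 6 livers, by Pearson's r of log2 CPM, were Rab3gap1 (r = 0.995), Kbtbd2 (0.991), Mtmr3 (0.991), Git1 (0.991) and Fastkd3 (0.990). All 5 were highest in WT-2 and lowest in WT-4, but with far smaller spread, from 0.13 in Mtmr3 (21.1 to 26.7 CPM) to 0.38 in Fastkd3 (6.11 to 12.5 CPM). With 6 livers and 12130 candidates, r this high describes the shared order and no more.

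Fatty acid oxidation was mostly steady with a few variable targets. Of 32 genes, 6 (18.8%) had an SD of at least 1, while the list median SD was 0.40, close to the 0.39 of all genes. Pdk4, which shuts pyruvate out of the citric acid cycle, was at 414, 894, 195, 33.1, 320 and 54.8 CPM. The omega-hydroxylase Cyp4a14 was at 1068 CPM in WT-4, 529 CPM in WT-5 and 79.8 to 169 CPM elsewhere. Fgf21, a fasting hormone of the liver, was at 38.6, 41.6, 17.4, 13.6, 2.24 and 3.58 CPM, with WT-5 and WT-6 lowest. Mitochondrial enzymes were nearly level: Acaa2 was at 429 to 516 CPM (SD 0.12) and Acadvl at 112 to 160 CPM (SD 0.22). The lipogenic Scd1, a desaturase, was at 5832 and 4134 CPM in WT-2 and WT-5 and 496 CPM in WT-4, and its companion Thrsp at 535 CPM in WT-6 and 8.21 CPM in WT-4.

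WT-4 stood apart in several bile acid genes. Slc51b, 1 of the subunits of the transporter that returns bile acids to the blood (chromosome 9, 65412714 to 65422955, minus strand), was at 28.2 to 47.6 CPM in 5 livers and 0.407 CPM (6 counts) in WT-4. Its SD was 2.46, and 0.32 without WT-4. Nr0b2, the repressor SHP that bile acids induce, was at 5.56 CPM in WT-4 and 40.9 to 70 CPM elsewhere. Cyp8b1, a bile acid sterol hydroxylase that SHP is known to repress, was at 111 CPM in WT-4 and 2.33 to 12.0 CPM elsewhere, and Nr1h4, the bile acid receptor FXR, at 266 CPM against 22.4 to 90.2 CPM. Of 22 genes in the list, 7 (31.8%) had an SD of at least 1, and 2 without WT-4. The uptake carrier Slc10a1 (82.7 to 160 CPM, SD 0.39) and the export pump Abcb11 (102 to 391 CPM, SD 0.85) did not set WT-4 apart, and Cyp7a1 did not pass the filter.

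Many genes of drug metabolism had their extremes in WT-6 and WT-4. Of 20 measured, 10 had their highest value in WT-6 and 11 their lowest in WT-4, and 8 (40.0%) had an SD of at least 1. Cyp3a25 was at 461, 384, 772, 85.8, 1500 and 1831 CPM and Por, the electron donor of microsomal P450 enzymes, at 447, 534, 283, 78.3, 701 and 633 CPM. Nr1i3, the nuclear receptor CAR that switches on such genes, ran against them, at 208 CPM in WT-4 and 9.33 to 87.7 CPM elsewhere. Its known target Cyp2b10 was at 29.3 and 17.5 CPM in WT-6 and WT-5 and 1.72 CPM in WT-2. Cyp1a2 (214 to 392 CPM, SD 0.29) and Cyp2e1 (1071 to 2673 CPM, SD 0.53) spread less.

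Several clock genes set WT-5 and WT-6 apart from the other 4 livers. The circadian clock is a feedback loop in which activators of the BMAL1 and CLOCK or NPAS2 type induce their own repressors over the day. Of 13 core clock genes, 5 (38.5%) had an SD of at least 1. The activator Npas2 (chromosome 1, 39193731 to 39363236, plus strand) was at 6.92, 4.78, 6.14 and 13.1 CPM in WT-1 to WT-4 and 0.172 and 0.0761 CPM in WT-5 and WT-6. Arntl, which encodes BMAL1, was at 9.03 to 14.9 CPM against 6.2 and 3.96 CPM. Some genes that the activators are known to induce stood the other way round: Per3 was at 7.07 and 16.2 CPM in WT-5 and WT-6 and 1.09 to 1.97 CPM in the others, and Ciart at 20.5 and 32.1 CPM against 1.90 to 9.55 CPM. WT-5 and WT-6 lay outside the range of the other 4 livers for these 4 genes and also for Cry2, Tef and Dbp.

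Nr1d1, which encodes the repressor REV-ERB alpha, ran with the activators: it was at 5.08 and 5.41 CPM in WT-5 and WT-6 and 9.80 to 35.6 CPM in the others, highest in WT-2. Other clock genes did not divide in this way. Nr1d2 was at 48.7 and 40.9 CPM in WT-5 and WT-6 but also at 45.1 CPM in WT-2, and Per1 (56.4 to 116 CPM, SD 0.35) and Cry1 (12.4 to 19.5 CPM, SD 0.27) overlapped. Since members on opposite arms of the loop cancel, the list score is uninformative (-0.17 to 0.12). The hour at which each liver was taken is not given in the labels. Whether it differed between animals was not tested.

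The E-box CACGTG, bound by the activators, was looked for in the 300-base windows. It was found in 3 of 11 core clock and 3 of 10 clock output genes, against 10.4% of all 9198. Among lists with at least 20 windows its share ran from 0% (major plasma proteins, acute phase proteins) to 28.6% (glucose metabolism, 6 of 21). The D-box TTATGTAA (either strand) was in 1 of 11 core clock and 0 of 10 clock output genes, against 0.511%. The upstream stretches of Ciart (chr3:95882229-95882478) and Per3 (chr4:151044666-151044915), both minus strand from RefSeq GRCm38.p6, are shown because both stood high in WT-5 and WT-6 and each holds more than 1 match. Capitals mark E-boxes in Ciart, beginning 116, 58 and 44 bases before the start, and D-boxes in Per3, beginning 205 and 158 bases before it.
Ciart: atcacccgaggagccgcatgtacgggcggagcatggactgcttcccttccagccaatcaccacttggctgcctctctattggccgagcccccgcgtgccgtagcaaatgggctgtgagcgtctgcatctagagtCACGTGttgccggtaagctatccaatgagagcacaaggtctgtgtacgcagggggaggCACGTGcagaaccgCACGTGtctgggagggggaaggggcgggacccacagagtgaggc
Per3: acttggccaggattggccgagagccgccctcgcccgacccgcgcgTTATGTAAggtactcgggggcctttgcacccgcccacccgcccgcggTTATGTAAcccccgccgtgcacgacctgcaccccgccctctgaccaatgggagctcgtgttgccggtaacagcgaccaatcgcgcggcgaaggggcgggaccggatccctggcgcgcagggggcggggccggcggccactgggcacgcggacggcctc
The marked motifs of these upstream stretches differ, while the livers had the same order for both genes, from WT-6 and WT-5 through WT-3, WT-2 and WT-1 to WT-4.

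**Figure D4:**
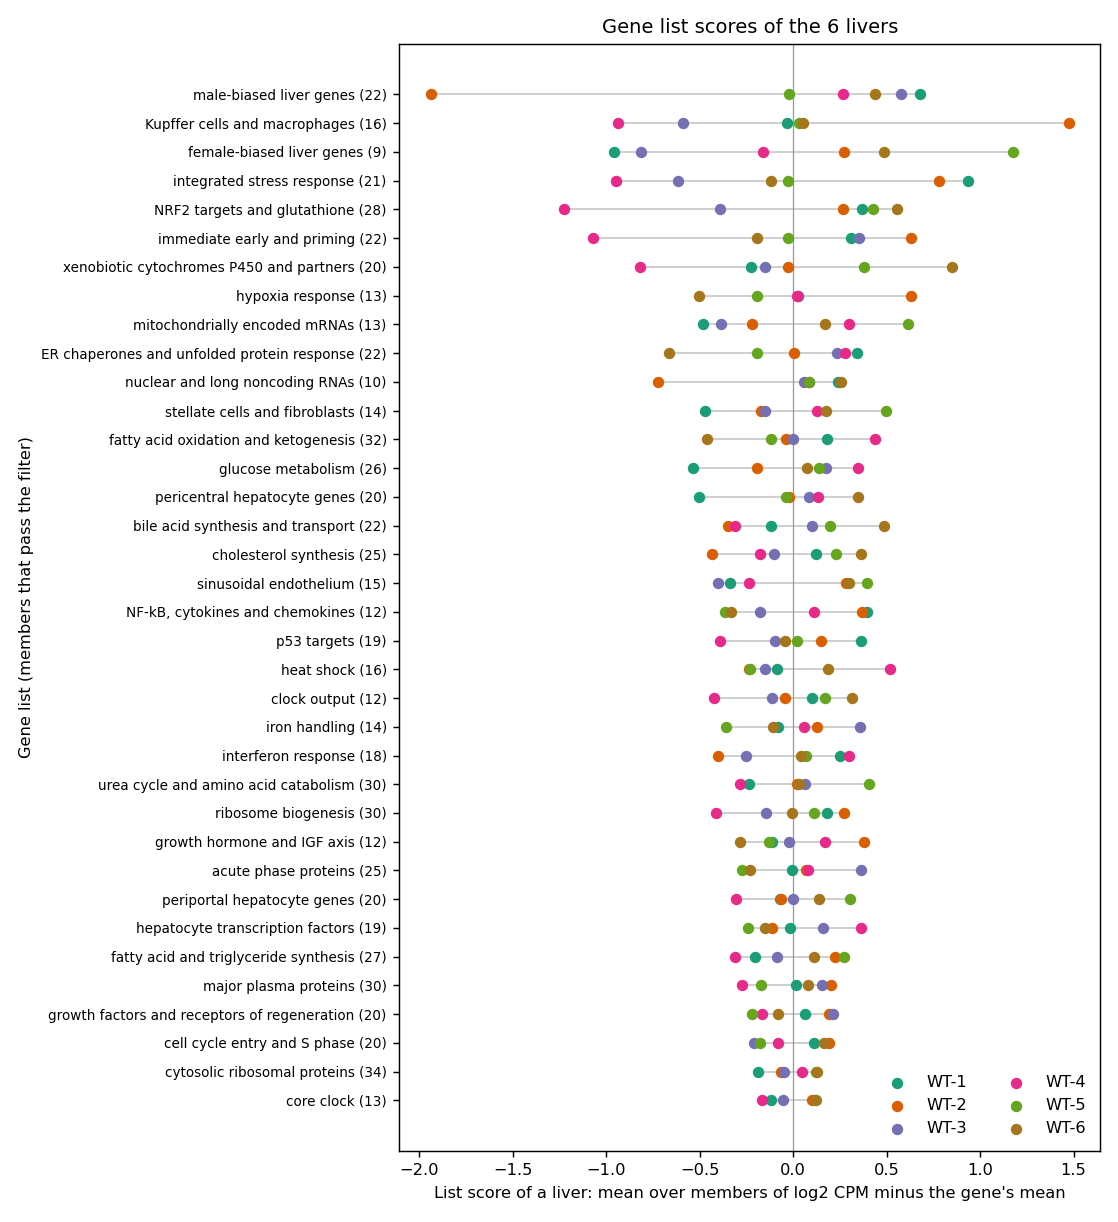
Each row is a gene list with at least 9 genes that passed the filter (number in brackets), each point 1 liver, and the horizontal axis the list score in log2 units; rows are ordered by range. WT-2 is the lowest liver for male-biased genes (-1.94) and the highest for Kupffer cell genes (1.47), WT-4 is the lowest for NRF2 (-1.23), stress response and immediate early genes, and ribosomal protein genes lie within -0.19 to 0.13.

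To see which transcripts vary together, the 1000 genes with the largest SD were clustered by Pearson's r over the 6 livers. The clusters are made from these values, so their order of livers is a description. Of the 1000, 816 fell into 8 clusters of at least 30 genes. Cluster 1 (232 genes, 1.91% of those measured) was highest in WT-2 and lowest in WT-4, with median deviations of 1.46 and -1.45 on the log2 scale. It held 8 of 16 Kupffer cell genes, all 4 neutrophil genes, 7 of 21 integrated stress response genes, 6 of 22 immediate early genes and Igfbp1. Its most typical genes were Bmf, a pro-apoptotic factor (0.204 to 4.18 CPM), the decoy receptor Il1r2, Olig1, Rasd1 and Tiparp. Immune cell markers and stress genes of hepatocytes thus fell in the same cluster. Whether immune cells account for its other members was not tested.

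Cluster 2 (140 genes) was the reverse, highest in WT-4 and lowest in WT-2, with median deviations of 1.83 and -1.36. It held G6pc, Pfkfb1, Ppp1r3b and Ppp1r3c of glucose metabolism, Cyp8b1 and Nr1h4 of bile acid metabolism and Inhba and Inhbc. The most typical genes were Hykk (6.04 to 59.0 CPM), Gm36251, Eps8l2, Ppp1r3b and Tedc2 (8.95 to 236 CPM). Cluster 3 (138 genes) was low in WT-2 (median deviation -1.93, against -0.01 to 0.76 in the others) and held 10 of 22 male-biased genes, among them Mup1, Mup7, Mup11, Mup12, Mup20, Cyp4a12a and Cyp7b1.

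The smaller clusters followed other orders. Cluster 4 (83 genes) was high in WT-3 and WT-4 and low in WT-2 and WT-5, with Elovl3 and Mup21. Cluster 5 (67 genes) was high in WT-5 and WT-6 (1.31 and 1.05) and held Per3, Cry2, the female-biased Fmo2, Cyp2c40 and Cyp2c69, and Apom, an apolipoprotein that carries sphingosine phosphate, at 306 and 186 CPM against 29.0 to 82.1 CPM. Cluster 6 (65 genes) was low in WT-4 (-1.72), with Gsta1, Gstm2, Gstm3, Atf3, Nr0b2 and Slc51b. Cluster 7 (47 genes) was low in WT-1 and WT-2 (-1.14 and -1.29) and held the contractile genes Acta2 (2.55 and 2.16 CPM against 8.49 to 18.1 CPM) and Tagln, and Klf15. Cluster 8 (44 genes) was low in WT-2 and high in WT-6 (-1.74 and 1.34), with Cyp2b10 and Malat1.

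**Figure D5:**
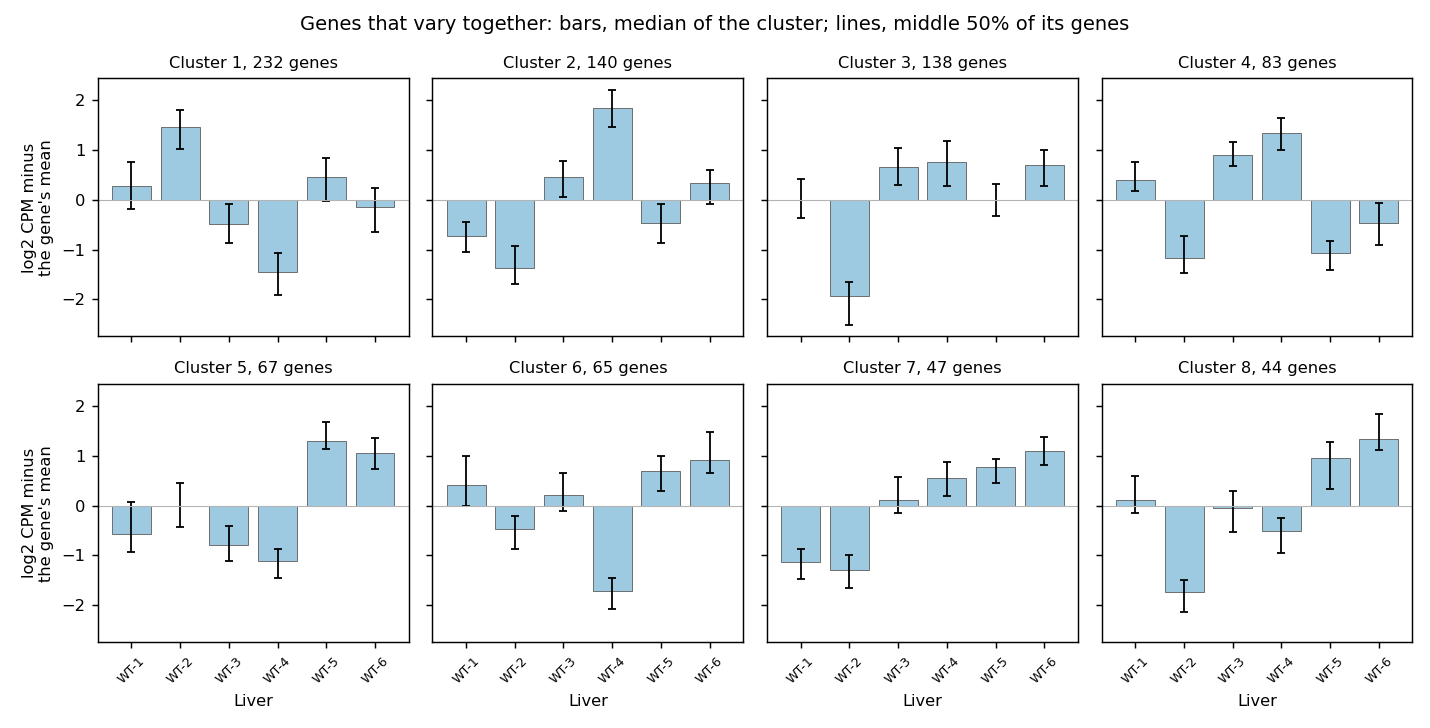
Panels show the 8 clusters among the 1000 genes with the largest SD; bars give the median over the cluster's genes of the departure from the gene's mean log2 CPM in each liver, and vertical lines the range of the middle 50% of genes. Clusters 1 and 2 mirror each other between WT-2 and WT-4 (1.46 and -1.45 against -1.36 and 1.83), and cluster 3 is at -1.93 in WT-2, with the other livers between -0.01 and 0.76.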

How the data were processed

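The deposited table holds raw read counts per gene symbol, made by the authors with 1 column per library; STAR, HTSeq, DESeq2 and the build mm10 are named in the submitters' processing notes, with no version, strand setting or annotation. Libraries were made from poly(A) RNA of liver tissue, per the labels' protocols. Only the 6 wild-type columns were used; the other columns were not analysed here. Total counts of 12307446 to 14340623 per liver set the counting error.

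Genes with at least 1 CPM on total counts in 4 or more livers were kept. Scaling was by TMM within the 6 livers in edgeR 4.0.16 (R 4.3.3), and log2 CPM had a prior count of 2. CPM values printed are TMM-scaled. With 1 group there is no comparison between conditions. The only test was a chi-square test of each gene's 6 counts against Poisson error (5 degrees of freedom, Benjamini-Hochberg, adjusted p under 0.05). Clusters came from average linkage on 1 minus Pearson's r, separated at a distance of 0.4. The procedure was tested on simulated data. Positions came from GENCODE M21 (GRCm38) and promoter sequences from RefSeq, with windows for 9198 of the 12130 genes.

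Named are a chosen panel of 26 genes, the 15 most abundant non-mitochondrial genes, the 30 with the largest SD, the 10 with the smallest SD at a mean of at least 100 CPM, up to 3 members of each list with the largest SD, the 5 genes most typical of each cluster and the 5 most like the most variable panel gene. Other list members, given to show the steady or contrasting ones, were added after their values were seen, as were the division of the male-biased list into Mup and other genes, Ighg1, the sex-linked genes and those beside the thresholds. The members, the 47 gene lists and the SD of 1 were chosen with earlier results of these data known. Alternatives were other scalings, other filters, a prior count of 0.5, the variance stabilising transformation of DESeq2 1.42.0, the median absolute deviation, other cluster settings and leaving out each liver. Nothing in the labels says that the livers came from separate animals, so the spread may be partly technical. A result that needs a withheld item is not reported here.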

Additional observations from a re-analysis of the deposited data

Results flagged for a closer look

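A liver was marked for a closer look where its gap to the nearest of the other 5 took more of the whole range, of log2 CPM or of a list score, than Dixon's 95% critical value for 6 samples. Chance alone marks about 1 in 20 groups. Of the 12130 genes, 648 (5.34%) were marked, 188 for WT-2 and 245 for WT-4, and of the 214 named genes 25 (11.7%), which were chosen in large part for their spread. Of 39 list scores, 2 (5.13%) were marked, both for WT-2: male-biased liver genes (-1.94) and nuclear and long noncoding RNAs (-0.72). The shares over all genes and over lists are near the 1 in 20 that chance alone marks. A mark is therefore a pointer to a value and no finding on its own.

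WT-2 was the low liver for Mup17 (1.27 CPM), Mup15 (0.298 CPM), Mup11 (11.6 CPM), Mup12 (8.36 CPM), Mup18 (0.373 CPM) and Mup7 (78.0 CPM). It was also the low liver for A530083I20Rik (0 CPM), Gtpbp4-ps1 (0.0746 CPM), Iqcc (1.12 CPM) and Ppp1r9a (0.970 CPM). WT-2 was the high liver for the immunoglobulin genes Igkc (196 CPM) and Igha (116 CPM), the macrophage gene Cd68 (54.1 CPM), Lyve1 of sinusoidal endothelium (50.4 CPM) and Hamp2, a hepcidin gene (63.9 CPM).

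WT-4 was the low liver for the bile acid exporter subunit Slc51b (0.407 CPM), the ligand Hbegf (0.407 CPM), the cytokine Gdf15 (27.4 CPM), cyclin E1 (Ccne1, 1.02 CPM), the metallothionein Mt1 (1109 CPM), the acute phase gene Orm3 (9.09 CPM) and, over a narrow range, Dnaja2 (98.0 CPM). It was the high liver for the interferon-induced GTPase Igtp (17.03 CPM). WT-1 was the high liver for the antiviral gene Rsad2 (31.4 CPM) and WT-3 for Saa1 (13476 CPM).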

How the results depend on the processing

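The 673 genes with an SD of at least 1 were the same 673 under RLE scaling, where 675 genes reached that SD, and 667 of them under upper-quartile scaling. The count was 1578 with no filter, 385 with 1 CPM required in all 6 livers and 286 with the variance stabilising transformation, and 439 to 673 when 1 liver was left out. The median SD of 0.39 became 0.49 with no filter, 0.32 with the transformation, 0.33 with the median absolute deviation and 0.35 to 0.39 without 1 liver. The biological coefficient of variation was 0.402 with no filter and 0.318 to 0.366 without 1 liver. The first component held 34.4% of the variance with no filter and 46.3% to 51.1% without 1 liver. Clustering the 500 genes with the largest SD placed 366 in clusters. Of the 30 genes with the largest SD, 10 stayed among the first 30 without WT-2 and 18 without WT-4. Of 3071 recomputed SDs of named genes, 150 fell outside 0.624 to 2.45 times the gene's main SD. These limits are the normal-value interval given above for an SD over 6 livers. Of the 150, 52 came with the median absolute deviation, 34 without WT-2 and 29 without WT-4. The transformation gave 22, and the other settings fewer than 5 each. The causes were not tested. Below 3 CPM the median counting SD was 0.28, so spread of rare transcripts is less certain. No paired analysis was possible because there is 1 group and each replicate number is 1 library.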
